A study of Homo sapiens with 2 samples.

Results

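Natural antisense transcripts of Hep3B cells were compared between a SOX4 knockout line and its parental line. They were taken as genes whose single symbol in the platform annotation contains -AS, each read from its transcript cluster with the highest mean of both arrays. Of 33616 named genes, 1012 carried such a symbol, and 989 remained after clusters whose identifiers start with TC21 were left out. The 264 members described here were selected on their measured level: the higher of their array values had to exceed the median of that value over all named genes (4.776, rounded to 2 decimals). The other 725 stayed below it. Of the 264, 262 are named as antisense transcripts, and BORCS7-ASMT and GPR75-ASB3 entered by the letters of their symbols although they are readthrough genes. RefSeq entries matched 255 members, and 251 of these are listed there as long non-coding RNAs.

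Antisense transcripts are RNAs read from the DNA strand opposite a gene, the sense gene, which gives them the part of their name before -AS. Some start beside the promoter of the sense gene and run away from it, some overlap its end or lie within its introns, and they can act on the sense gene, on distant targets or have no known role. Circular RNAs also occur in this class, and CDR1-AS, known as ciRS-7, is the best studied of them.

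Hep3B is an established human hepatocellular carcinoma line. Total RNA of cells grown to 80% confluence was hybridised to 1 array of the line in which SOX4 had been knocked out with CRISPR/Cas9 and to 1 array of the wildtype parental line. The knockout cells were kept in puromycin at 1 ug/ml and the parental cells in the same medium without it, and the labels do not say whether the knockout line is 1 clone. Genotype, puromycin, selection and array therefore cannot be told apart, and neither can fewer cells with a transcript and less of it per cell. As each genotype had 1 array, no difference could be checked against replicates, no test was possible, and "higher" and "lower" below describe the knockout array against the parental array. Values are the deposited log2 values, a difference is knockout minus parental, and a difference of 1 is 2-fold. Because probes differ in how strongly they respond, a value was compared only with the same cluster on the other array.

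The targeted gene SOX4, a transcription factor of the SOX family, read 12.44 in the knockout and 13.14 in the parental array, a difference of -0.70; where its probes lie relative to the edit was not examined. The 8 measured markers of the hepatocyte lineage all passed the level filter, with knockout values of 9.73 to 18.88 and parental values of 12.44 to 18.87. Among them AFP, the fetal alpha-fetoprotein, read 9.73 and 15.50, APOA1 11.27 and 12.44, and ALB 18.84 and 18.87. None of 3 endothelial markers passed, 4 of 5 fibroblast markers did and 2 of 4 leukocyte markers did. The fibroblast markers spanned 4.45 to 12.69 in the knockout and 4.54 to 8.45 in the parental array, with LUM at 12.69 and 7.90 and DCN at 4.45 and 4.54. The leukocyte markers spanned 3.78 to 11.87 and 4.22 to 9.62, with LYZ at 11.87 and 9.62 and PTPRC, the defining marker, at 4.72 and 4.76. The part of these markers in the results was not tested. The array medians over all 135750 clusters were 3.80 and 3.83.

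Most antisense transcripts had nearly the same value on both arrays. Of the 264 members, 195 (73.9%) lay within 1.5-fold, as did 73.4% of the 16602 named genes above the same filter. A total of 13 members were 2-fold or more higher (4.92%) and 9 were 2-fold or more lower (3.41%). Among all genes above the filter 6.57% were 2-fold higher and 3.49% lower, among RefSeq long non-coding RNAs 5.79% and 4.01%, and among RefSeq protein-coding genes 8.32% and 4.08%. The shares of antisense transcripts past 2-fold were thus near those of other genes and are no result about the class. At 4-fold, 3 members were higher and 2 lower, where 1.36% and 0.446% of all genes were.

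The median difference of the members was -0.03, against 0.04 over all genes above the filter, and 128 members lay above 0 and 136 below. The SD of the differences was 0.78 (n = 264 members), and 0.60 when ZFPM2-AS1 and CDR1-AS were left out, against 0.70 over all genes. Those 2 transcripts, one of them 16-fold or more lower and the other 16-fold or more higher, thus set much of the spread. The filter let a gene in through 1 high array. Of the 22 members past 2-fold, 11 had their other value under the threshold, namely 4 of the 13 higher and 7 of the 9 lower members. Among the 209 members above the threshold on both arrays, 9 were 2-fold higher and 2 were 2-fold lower.

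The split between higher and lower members also moved with the centring of the arrays. When both arrays were centred on the median of the genes above the filter, every difference shifted by -0.12, and 9 members were 2-fold higher and 12 lower. GATA2-AS1, SNAI3-AS1, VIM-AS1 and RAB11B-AS1 then no longer reached 2-fold, while RAMP2-AS1, KLF3-AS1 and MAPKAPK5-AS1 did. This centring moved the median difference of all genes above the filter from 0.04 to -0.08, farther from 0. Quantile normalization moved it to 0.02, with 13 members higher and 8 lower. Removal of a level trend moved it to 0.01, with 12 higher and 9 lower. Calls of members close to 2-fold thus depend on the setting, and the counts below, which use the deposited values, include such members.

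**Figure D1:**
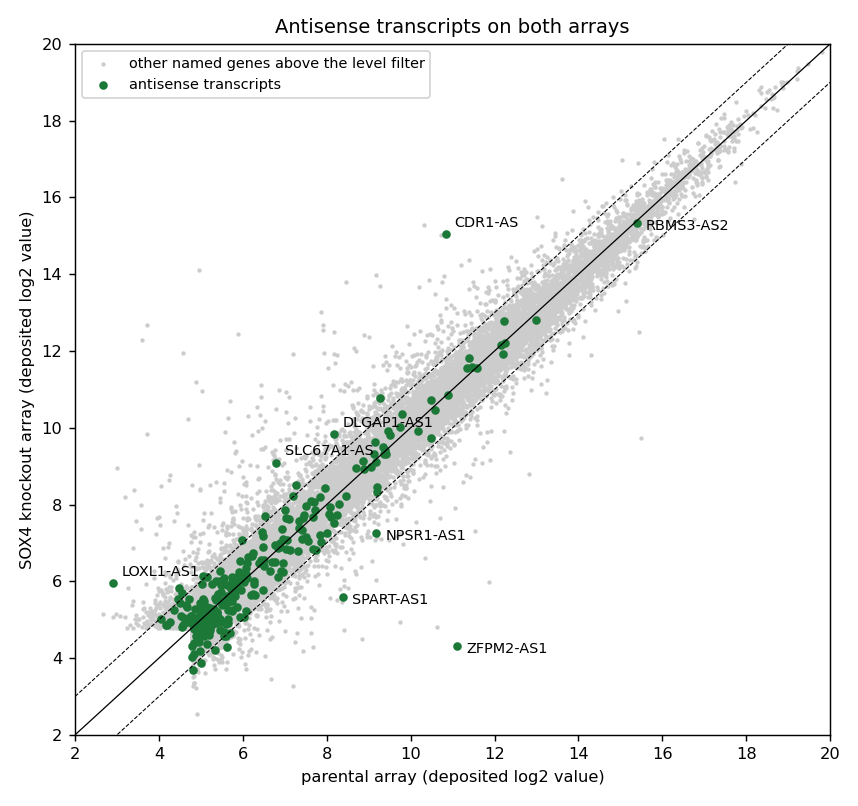
Deposited log2 value of each of the 264 antisense transcripts (green) and of the other named genes above the level filter (grey), with the parental array on the x axis and the SOX4 knockout array on the y axis. The solid line marks equal values and the dashed lines 2-fold; most green points lie between the dashed lines, ZFPM2-AS1 lies far below them (4.31 against 11.12) and CDR1-AS far above (15.05 against 10.84).

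ZFPM2-AS1 showed the widest gap. It is a long non-coding RNA of chromosome 8 that has been described as raised in hepatocellular and other carcinomas. It read 11.12 in the parental array and 4.31 in the knockout array, under the level threshold, a difference of -6.81 (112-fold lower). As the knockout value is dim and no detection calls were used, the size of this fold is uncertain. On the deposited scale no other gene among the 16602 above the filter had a difference as low. ZFPM2-AS1 passed that filter only through the parental array, so this rank is a description. Its sense gene ZFPM2 encodes a cofactor that binds GATA factors in heart and gonad development, and it read 4.47 in the knockout and 4.99 in the parental array, a difference of -0.51.

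The clusters whose identifiers follow ZFPM2-AS1 were low in the knockout array too. They carry no gene symbol in the annotation and were looked at after the value of ZFPM2-AS1 was seen. The next one read 6.81 in the knockout and 10.08 in the parental array, a difference of -3.27, and the one after it 4.04 and 6.41, a difference of -2.37. The cluster just before read 2.79 and 4.46, a difference of -1.67, with both values under the level threshold. The stretch of low values ended there: the clusters next in order on either side differed by 0.32 and 0.00, with all values under the threshold. Among named clusters around ZFPM2-AS1 the order of identifiers followed the order of RefSeq genes in 61 of 61 steps, so these unnamed clusters are probably its neighbours, and whether they hold the same transcript was not tested.

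The genes of the factors that ZFPM2 binds had like values on both arrays. GATA4 read 12.10 and 12.12 in the knockout and parental arrays, and GATA6 read 8.93 and 9.22. LRP12, a receptor gene on the same chromosome, read 6.23 and 7.04. These genes were also chosen after values were seen.

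CDR1-AS had the widest gap in the other direction. As a circular RNA it is known for its many binding sites for miR-7, and it is cut at a site for miR-671, which is nearly complementary to it. The transcript cluster named CDR1-AS read 15.05 in the knockout and 10.84 in the parental array, a difference of 4.21 (18.5-fold higher), with both values well above the threshold. Of the 16602 genes above the filter, 33, itself included, had a difference as high. Of 985 other genes within 0.5 of its mean value, 3 differed as far in either direction. A linear and a circular form cannot be told apart in these values.

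The mature miRNAs known to pair with CDR1-AS are shown from RefSeq (GRCh38.p14) because their seeds, bases 2 to 8 in capitals, mark what the circular RNA binds. The miR-7-5p strand shown comes from the MIR7-1 locus, chr9:83969811-83969834 on the minus strand, and the same letters are listed for MIR7-3. The miR-671-5p strand lies at chr7:151238449-151238471 on the plus strand.
miR-7-5p: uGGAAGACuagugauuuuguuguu
miR-671-5p: aGGAAGCCcuggaggggcuggag
Both seeds begin with GGAAG.

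The precursor genes of these miRNAs gave little. MIR7-2 read 3.66 in the knockout and 3.89 in the parental array, and MIR7-3 read 3.84 and 3.63, all under the level threshold. MIR7-1 and MIR671 had no cluster under a single symbol. CDR1, the gene on the other strand, had none either. RefSeq lists CDR1-AS as a synonym of LINC00632, the long non-coding gene from which the circle is known to be spliced. The cluster named LINC00632 read 3.10 and 2.62, also under the threshold, unlike the cluster named CDR1-AS. The clusters on either side of it in identifier order, unnamed, differed by -0.03 and 0.34. These precursor and neighbour genes were chosen after the values were seen.

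**Figure D2:**
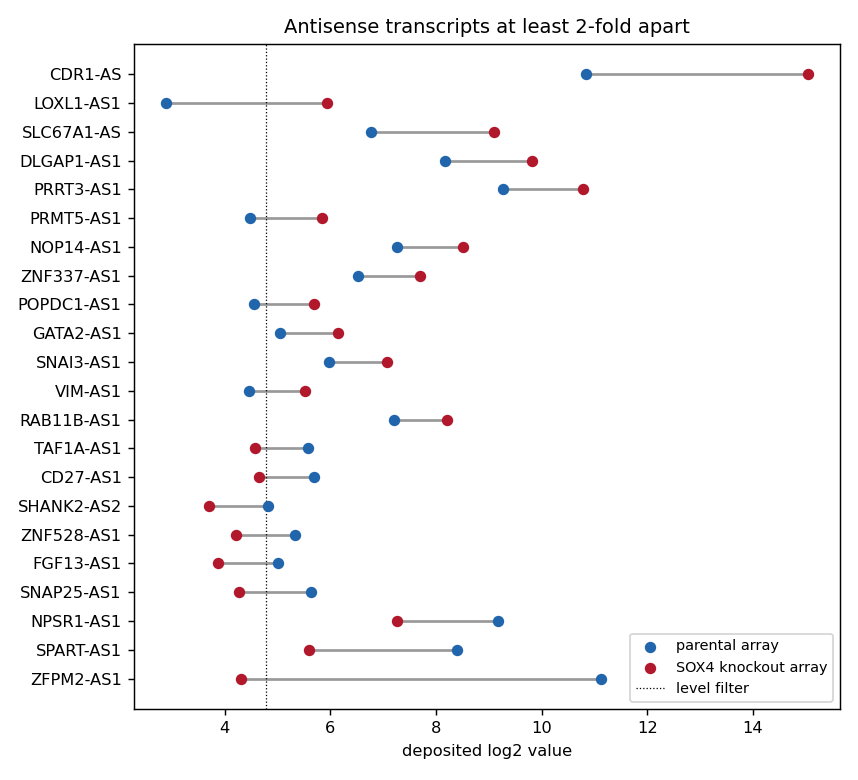
Deposited log2 values (x axis) of the 22 antisense transcripts at least 2-fold apart, with the parental array in blue, the SOX4 knockout array in red and the level threshold as a dotted line. CDR1-AS and ZFPM2-AS1 stand at the ends, and 11 of the 22 have 1 value to the left of the dotted line.

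Among the other higher members, LOXL1-AS1 and SLC67A1-AS stood out because their sense genes were higher as well. LOXL1-AS1 read 5.95 in the knockout and 2.90 in the parental array, a difference of 3.05 (8.26-fold). LOXL1, a lysyl oxidase that cross-links elastin, read 7.97 and 4.396, a difference of 3.57 (11.9-fold). No other gene of the 1283 above the filter within 0.5 of the mean value of LOXL1-AS1 differed as far. LOXL1-AS1 passed that filter only through the knockout array, so this rank is a description. The parental values of LOXL1-AS1 and LOXL1 lay under the level threshold, so their folds rest on dim signals. The RefSeq starts of the pair lie 1324 bases apart on opposite strands of chromosome 15, and the transcripts overlap at their 5′ ends. STOML1, next to LOXL1-AS1 in identifier order and chosen after its value was seen, differed by 0.19.

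SLC67A1-AS lies on chromosome 11 in a region of imprinted genes. It read 9.09 in the knockout and 6.78 in the parental array, a difference of 2.31 (4.97-fold). SLC67A1, also known as SLC22A18, encodes a membrane transporter and read 9.82 and 6.21, a difference of 3.61 (12.2-fold). All of these values were above the level threshold, and the starts lie 1155 bases apart. Neighbours in the region, chosen after their values were seen, went both ways. PHLDA2, an imprinted gene that limits placental growth, differed by 1.62, from 6.25 in the parental to 7.87 in the knockout array. CDKN1C, the cell cycle inhibitor p57, differed by -2.36, from 8.40 to 6.04. IGF2, a fetal growth factor, differed by -0.997, KCNQ1 by 0.34 and NAP1L4 by 0.02.

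SPART-AS1 was the second lowest member. It read 5.60 in the knockout and 8.40 in the parental array, a difference of -2.79 (6.94-fold lower), with both values above the threshold. Its sense gene SPART encodes spartin, an endosomal protein lost in Troyer syndrome, a hereditary spastic paraplegia. SPART read 10.89 and 11.69, a difference of -0.80. The starts lie 37 bases apart on opposite strands of chromosome 13. The neighbours RFXAP, CCNA1, CCDC169 and SOHLH2, chosen after values were seen, differed by -0.45, -0.26, -0.74 and 0.13.

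Windows around the starts of these transcripts, 250 bases before to 50 after, are shown from RefSeq (GRCh38.p14) for both pairs that were 2-fold higher together, for SPART-AS1, whose sense gene starts close by, and for DLGAP1-AS1, whose window holds a SOX motif. In SPART-AS1, chr13:36346181-36346480 on the plus strand, capitals mark the stretch from the start of SPART, read the other way, to the start of SPART-AS1. LOXL1-AS1 is at chr15:73927737-73928036 and SLC67A1-AS at chr11:2903526-2903825, both on the minus strand. In DLGAP1-AS1, chr18:3593864-3594163 on the plus strand, capitals mark the motif match.
SPART-AS1: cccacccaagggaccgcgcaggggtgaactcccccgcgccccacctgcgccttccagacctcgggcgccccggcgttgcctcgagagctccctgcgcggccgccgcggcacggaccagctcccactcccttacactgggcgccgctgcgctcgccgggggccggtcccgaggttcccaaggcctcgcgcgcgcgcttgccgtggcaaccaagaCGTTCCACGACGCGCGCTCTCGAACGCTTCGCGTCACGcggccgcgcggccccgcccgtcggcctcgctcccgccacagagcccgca
LOXL1-AS1: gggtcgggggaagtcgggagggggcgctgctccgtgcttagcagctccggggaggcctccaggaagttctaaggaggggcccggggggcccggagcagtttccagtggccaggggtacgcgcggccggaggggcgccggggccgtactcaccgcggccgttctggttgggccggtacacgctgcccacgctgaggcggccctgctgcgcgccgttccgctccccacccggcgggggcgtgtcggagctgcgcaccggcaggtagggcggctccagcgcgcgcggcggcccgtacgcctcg
SLC67A1-AS: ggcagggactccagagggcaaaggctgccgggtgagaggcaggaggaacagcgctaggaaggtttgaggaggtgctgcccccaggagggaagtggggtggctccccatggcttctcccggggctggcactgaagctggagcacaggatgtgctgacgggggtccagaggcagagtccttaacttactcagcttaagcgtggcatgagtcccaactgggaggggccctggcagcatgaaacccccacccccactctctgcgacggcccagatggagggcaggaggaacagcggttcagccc
DLGAP1-AS1: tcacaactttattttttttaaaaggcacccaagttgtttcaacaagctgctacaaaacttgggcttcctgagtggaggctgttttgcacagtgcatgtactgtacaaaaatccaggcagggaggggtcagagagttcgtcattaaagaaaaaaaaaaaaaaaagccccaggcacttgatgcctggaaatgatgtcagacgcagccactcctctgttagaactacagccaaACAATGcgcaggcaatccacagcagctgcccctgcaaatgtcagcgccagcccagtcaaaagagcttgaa
The window of SPART-AS1 is rich in G and C (76.7%) and holds 49 CpG dinucleotides, and that of LOXL1-AS1 has the same share and 40. The window of SLC67A1-AS has 64.3% and 8, and that of DLGAP1-AS1 46.0% and 4.

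The windows were searched on both strands for ACAAAG and ACAATG, forms of the core that SOX proteins bind, which cannot both start at the same base. At least 1 match stood in 24.5% of all 35116 RefSeq windows and in 21.8% of the 243 windows of members. RefSeq had windows for 6 of the members that differed by 1.5 or more, and of these DLGAP1-AS1 held a match and SPART-AS1, LOXL1-AS1, SLC67A1-AS, NPSR1-AS1 and PRRT3-AS1 held none. A match is only a run of letters, and its absence says only that these letters are not in the window.

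DLGAP1-AS1, described as raised in several carcinomas, read 9.82 in the knockout and 8.16 in the parental array, a difference of 1.66 (3.16-fold). DLGAP1, a scaffold protein of synapses, read 4.85 and 4.402 in its brightest cluster, a difference of 0.45 that became -0.16 with the mean over its clusters. DLGAP1-AS2, the next identifier, differed by 0.55. PRRT3-AS1 read 10.79 and 9.27, a difference of 1.52 (2.86-fold). Its sense gene PRRT3, a proline-rich membrane protein gene, differed by 0.07 with both values under the threshold. Of the clusters around PRRT3-AS1, chosen after values were seen, IL17RC, a receptor chain for interleukin 17, differed by 1.04, CRELD1 by 0.86 and the unnamed ones before PRRT3-AS1 by -0.08 and 0.54. The unnamed ones after it differed by 1.25, 0.54 and 0.10, and EMC3-AS1, next in order, by -0.01.

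NPSR1-AS1 was the third lowest member. It read 7.26 in the knockout and 9.18 in the parental array, a difference of -1.92 (3.80-fold lower). NPSR1, the receptor of neuropeptide S, had no cluster of its own. As beside ZFPM2-AS1, the next identifiers were low too, at -1.48 and -1.66, and the named one after them, NCAPD2P1, differed by 0.41. These clusters were chosen after the value of NPSR1-AS1 was seen.

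The other higher members were dimmer or closer to 2-fold. PRMT5-AS1 differed by 1.35, from 4.49 in the parental to 5.84 in the knockout array, while PRMT5, an arginine methyltransferase, differed by -0.08. NOP14-AS1 differed by 1.25, from 7.26 to 8.51, and NOP14, a factor of small ribosomal subunit assembly, by 0.33. ZNF337-AS1 differed by 1.17, from 6.53 to 7.70, and its zinc finger gene ZNF337 by 0.21. In each of these pairs the sense gene stayed within 1.5-fold. POPDC1-AS1 (1.14), GATA2-AS1 (1.11), SNAI3-AS1 (1.10), VIM-AS1 (1.07) and RAB11B-AS1 (1.01) followed. Their sense genes differed by 0.56 for POPDC1, a cAMP-binding membrane protein gene, 0.07 for GATA2, a blood cell transcription factor, 0.14 for SNAI3, 0.87 for VIM, the vimentin gene (0.14 with the mean over its clusters), and 0.54 for RAB11B, a GTPase of recycling endosomes. ID2-AS1 (0.97) and TGFB2-AS1 (0.96) stood just under 2-fold.

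Among the other lower members, SNAP25-AS1 differed by -1.35, from 5.63 in the parental to 4.28 in the knockout array. SNAP25, a SNARE protein of vesicle fusion, differed by -1.08, from 7.78 to 6.69, and this was the only pair with both genes 2-fold lower, joined by RAMP2 and RAMP2-AS1 after centring. FGF13-AS1 (-1.13), ZNF528-AS1 (-1.12), SHANK2-AS2 (-1.12), CD27-AS1 (-1.03) and TAF1A-AS1 (-1.02) had parental values of 4.82 to 5.69 and knockout values under the threshold. ZNF528 differed by -0.52 and SHANK2, CD27 and TAF1A by -0.10, 0.12 and 0.10. RAMP2-AS1 (-0.96), KLF3-AS1 (-0.96), MAPKAPK5-AS1 (-0.94), PRKG1-AS1 (-0.88), MORF4L2-AS1 (-0.87) and ZNF667-AS1 (-0.87) came next, inside 2-fold.

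Apart from CDR1-AS, whose mean over both arrays was also among the highest, the 5 other members with the highest means stayed within 1.5-fold. RBMS3-AS2 read 15.34 in the knockout and 15.39 in the parental array, NUTM2A-AS1 12.80 and 12.98, and SVIL-AS1 12.77 and 12.21. The readthrough gene BORCS7-ASMT read 12.22 and 12.26, and EMC3-AS1 12.16 and 12.16. At the threshold, GLYCTK-AS1, ANKRD34C-AS1 and TMLHE-AS1 were just outside with higher values of 4.774, 4.761 and 4.759, and PAX8-AS1, IL20RB-AS1 and TMEM254-AS1 just inside with 4.784, 4.793 and 4.807. Of the 264 members, 152 had a mean of both arrays under 6, and 11 of those were past 2-fold (7.24%, against 8.62% of all genes in that range).

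Each member was then set beside its sense gene. A sense gene with a single-symbol cluster was found for 236 members (235 genes), and 28 members had none, 17 of them because the symbol shares a cluster with others. The labels do not say whether the labelling kept the strand, so how far signal from one strand reached probes of the other was not tested. Among the 235 sense genes, which were not filtered by level, 17 were 2-fold higher (7.23%) and 9 lower (3.83%). All of these were among the 183 sense genes above the level threshold, so the shares within those 183 are larger. Over all genes above the filter the shares were 6.57% and 3.49%, and the difference between these sets was not tested. In 3 pairs both genes were past 2-fold in the same direction, LOXL1, SLC67A1 and SNAP25, and in 0 pairs in opposite directions.

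The sign of the difference was shared in 142 of 236 pairs (60.2%), and the differences correlated across pairs with Pearson's r of 0.35 and Spearman's rho of 0.28. In 186 of the pairs the member was above the level threshold on both arrays. In the rest the filter fixed the sign of the member, which limits what shared signs show. Genes are not independent replicates, all pairs share the same 2 arrays, and r was 0.24 over the 234 pairs without LOXL1 and SLC67A1. Neighbouring genes in general also shared signs, though in a smaller share: 54.3% of 16345 adjacent gene pairs, with r of 0.16. Other gene pairs with divergent starts had r of 0.28 and the same sign in 59.8% (737 pairs). The 236 pairs hold all arrangements, so the set most like these is the 74 pairs that lie head to head, with starts within 1000 bases or divergent. Those 74 had r of 0.40 and the same sign in 62.2%. The difference between these sets was not tested.

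**Figure D3:**
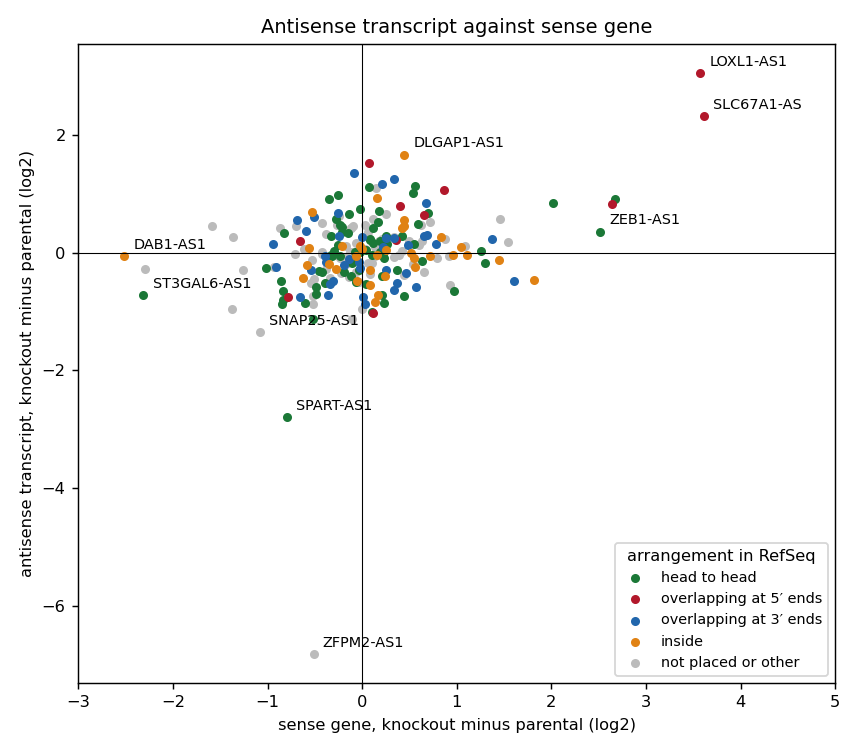
Difference between the arrays (knockout minus parental, log2) of the sense gene on the x axis and of its antisense transcript on the y axis for 236 pairs, coloured by how the genes lie in RefSeq. LOXL1-AS1 and SLC67A1-AS stand alone at the upper right, ZFPM2-AS1 and SPART-AS1 lie low with sense genes inside 2-fold, and the sense genes ZEB1 (2.51) and DAB1 (-2.51) have antisense transcripts at 0.35 and -0.06. The values of DAB1-AS1 lie near the level threshold.

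Of the 22 members past 2-fold, 19 had a sense value. The sense gene had the same sign in 16 of these and stayed within 2-fold in 16. ZFPM2-AS1, SPART-AS1, DLGAP1-AS1 and PRRT3-AS1 were among those whose sense gene stayed within 2-fold. Of these sense genes only SPART was well above the level threshold on both arrays. ZFPM2 and DLGAP1 read close to it and PRRT3 under it (3.04 in the knockout and 2.98 in the parental array), which limits what the count shows. The reverse held as well: of 26 pairs whose sense gene was past 2-fold, the antisense transcript stayed within 2-fold in 23, with the same sign in 19 of the 26.

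Several of these sense genes differed widely. ZEB1, a transcription factor that represses E-cadherin, read 13.36 in the knockout and 10.85 in the parental array, a difference of 2.51, while ZEB1-AS1, whose start lies 107 bases away, read 8.06 and 7.71, a difference of 0.35. EGLN3, an oxygen-sensing prolyl hydroxylase, differed by 2.67 in its brightest cluster (1.01 with the mean over its clusters) and EGLN3-AS1 by 0.90. INHBA, a subunit of activin, differed by 2.64 and INHBA-AS1 by 0.83. NRSN2 differed by 2.01 and NRSN2-AS1 by 0.84. In these 4 pairs the antisense transcript was higher too, by less than 2-fold. EGLN3-AS1 and INHBA-AS1 had parental values of 4.35 and 4.71, under the level threshold. They passed the filter only through the knockout array, which fixed their sign.

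In other pairs the antisense transcript stayed near 0 or went the other way. FRMD6, a gene of the Hippo pathway, differed by 1.81 and FRMD6-AS1 by -0.47. HPN, which encodes the liver protease hepsin, differed by 1.60 and HPN-AS1 by -0.48. Both antisense transcripts thus had the sign opposite to the sense gene. HPN-AS1 read 4.74 in the knockout and 5.22 in the parental array. It passed the level filter only through the parental array, which fixed its sign. FRMD6-AS1 was dim as well, at 5.26 in the knockout and 5.73 in the parental array. The antisense transcripts of BARX1 (1.54), SOCS2 (1.45), PLCE1 (1.44), ARRDC1 (1.37), TRAM2 (1.30), TMEM9B (1.26), OSBPL10 (1.11), EGFR (1.08) and TRHDE (1.04) differed by -0.17 to 0.56. Some of them were dim, such as BARX1-AS1 at 5.03 in the knockout and 4.85 in the parental array. TRAM2 was inside 2-fold (0.47) with the mean over its clusters, and OSBPL10, EGFR and TRHDE were so after centring.

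Lower sense genes gave a like picture. DAB1, an adaptor of reelin signalling, read 5.55 in the knockout and 8.07 in the parental array, a difference of -2.51, and DAB1-AS1 differed by -0.06. ST3GAL6, a sialyltransferase, differed by -2.31 in its brightest cluster (-1.17 with the mean over its clusters) and ST3GAL6-AS1, which starts 50 bases from it, by -0.72. A2M, the secreted protease inhibitor alpha-2-macroglobulin, read 5.32 and 7.62, a difference of -2.30, and A2M-AS1 differed by -0.28. All of these antisense transcripts were inside 2-fold. In the knockout and parental arrays DAB1-AS1 read 4.91 and 4.97 and A2M-AS1 5.06 and 5.34, near the level threshold. Signals this dim limit what their small differences show. SEMA6A, a semaphorin, differed by -1.58 and SEMA6A-AS1 by 0.45, and ZSCAN16 by -1.36 and ZSCAN16-AS1 by 0.26, opposite in sign. RAMP2, a receptor accessory protein gene, differed by -1.38 and RAMP2-AS1 by -0.96, FARP1 by -1.26 and FARP1-AS1 by -0.30, and MEF2C, a muscle and neuron transcription factor, by -1.02 and MEF2C-AS1 by -0.26.

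**Figure D4:**
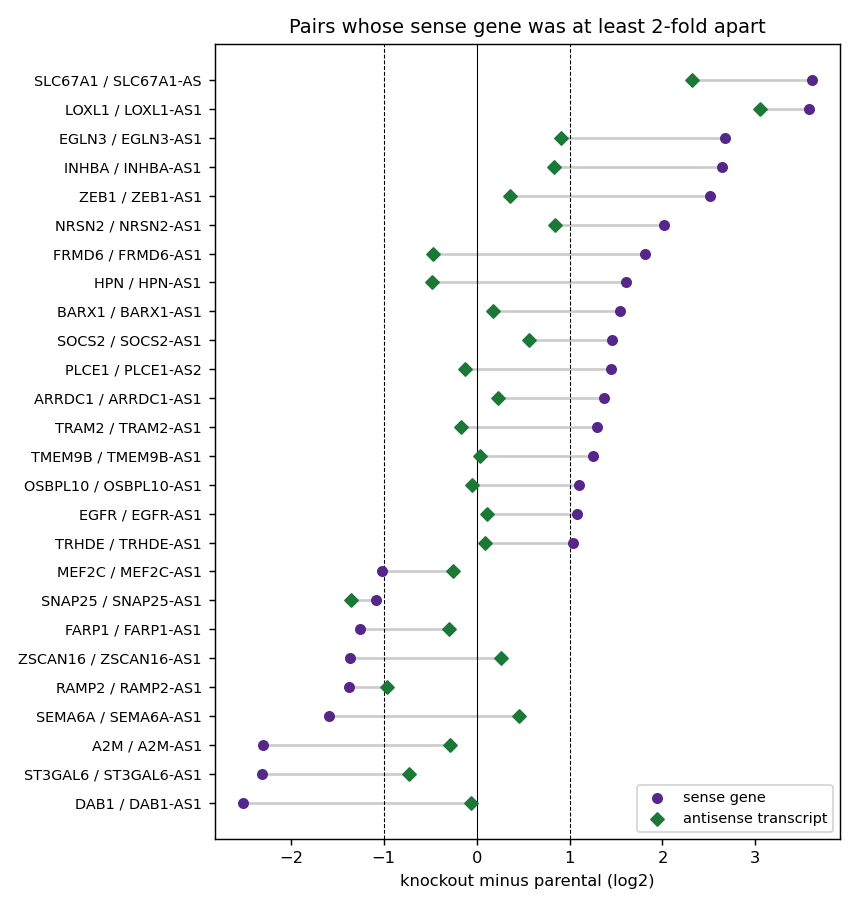
Difference between the arrays (x axis, knockout minus parental, log2) of the sense gene (circles) and its antisense transcript (diamonds) in the 26 pairs whose sense gene was at least 2-fold apart; dashed lines mark 2-fold. In 23 of the 26 the diamond lies between the dashed lines, and SLC67A1, LOXL1 and SNAP25 are the others.

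How the pair lies on the chromosome was read from RefSeq for all but 84 members, which could not be placed. In 83 the genes stood head to head, with starts within 1000 bases or divergent. Of these 3 were 2-fold higher and 3 lower, signs were shared in 46 of 74 pairs, and r was 0.40 (0.38 without POPDC1-AS1 and SPART-AS1). In 41 the 3′ ends overlapped, with 3 members 2-fold higher and 0 lower, and r was 0.06 over 39 pairs. In 37 one gene lay inside the other, with 1 higher and 1 lower, and r was 0.03 over 34 pairs. The remaining 12 with overlapping 5′ ends, 5 without overlap and 2 on the same strand were few.

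The 12 members that overlap the 5′ end of their sense gene, a class set after positions were seen, held 4 of the 13 members that were 2-fold higher (LOXL1-AS1, SLC67A1-AS, PRRT3-AS1 and VIM-AS1) and 2 of the 9 lower (NPSR1-AS1 and CD27-AS1). Their median difference was 0.72, against -0.03 over all members, and over all genes above the filter 6.57% were 2-fold higher and 3.49% lower. VIM-AS1 was inside 2-fold after centring. With 12 members chosen in this way, these counts are a description and no trait of the class. Across the 11 of these with a sense value r was 0.79, and it was 0.44 over 9 pairs without LOXL1-AS1 and SLC67A1-AS. The figure of 0.79 therefore rests largely on those pairs.

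The members were also grouped by what their sense genes do. Of 34 antisense transcripts of zinc finger genes, 14 passed the level filter, and 1 of these was 2-fold higher (ZNF337-AS1) and 2 lower (ZFPM2-AS1 and ZNF528-AS1). Of the 14, 3 lay above 0, against 128 of all 264 members. Their median difference was -0.50, and that of their 13 measured sense genes was -0.51. Among the 14, ZFPM2-AS1 and ZNF528-AS1 passed the filter only through the parental array, which fixed their sign. Many genes named ZNF encode a KRAB domain, which can repress transcription, and many lie on chromosome 19. The 17 members on that chromosome had a median of -0.46, and all genes above the filter there had a median of -0.12. These members overlap with the zinc finger list (ZNF561-AS1 is in both), so the low median there is not a separate result about the chromosome. ZNF667-AS1 and ZNF667 are an example, with -0.87 and -0.84.

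Antisense transcripts of developmental transcription factors gave a median of 0.04 over 19 of 32 that passed the filter, with GATA2-AS1 2-fold higher and ZFPM2-AS1 2-fold lower. Of 42 measured antisense transcripts described in cancer, 32 passed the filter. Of these, 3 were 2-fold higher (LOXL1-AS1, DLGAP1-AS1 and VIM-AS1) and 1 lower (ZFPM2-AS1), with a median of 0.21. GATA2-AS1 and VIM-AS1 were inside 2-fold after centring. Over all genes above the filter 6.57% were 2-fold higher and 3.49% lower, and beside these shares counts as small as those of the lists are read as nothing particular to them. In the HOX clusters, where antisense transcripts mark active domains of body patterning genes, 1 of 13 passed the filter, HOXA-AS2, which read 8.23 in the knockout and 8.45 in the parental array. None of the 4 measured antisense transcripts on the list of imprinted regions passed it, a list that does not hold SLC67A1-AS or ZIM2-AS1 (-0.80), named for an imprinted zinc finger gene and chosen after its value was seen. Of 5 on a list of genes of secreted liver proteins 3 passed, F10-AS1 (-0.73), HPN-AS1 (-0.48) and A2M-AS1 (-0.28), all inside 2-fold, although hepsin, the product of HPN, is anchored in the membrane. F10-AS1 and HPN-AS1 passed only through the parental array, which fixed their sign. F10 itself, the gene of coagulation factor X, differed by 0.17.

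**Figure D5:**
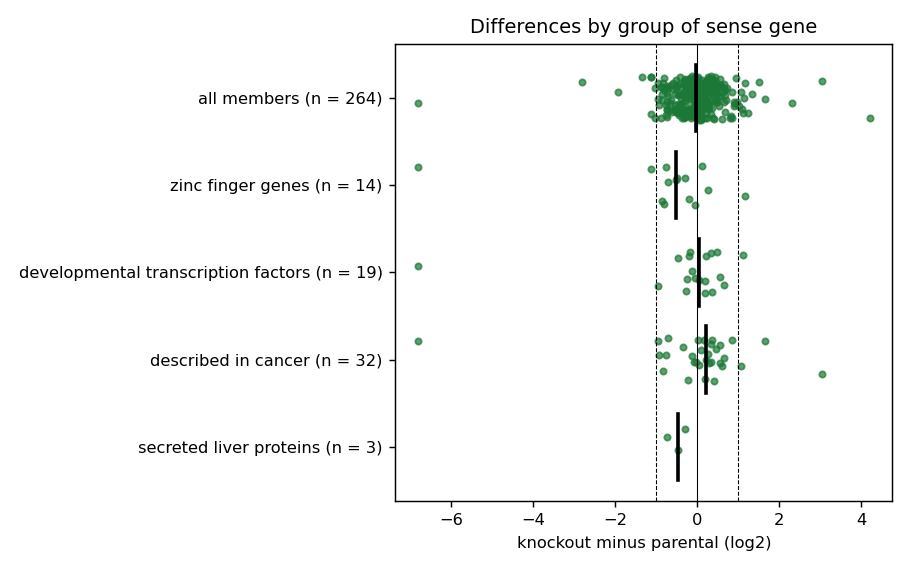
Difference between the arrays (x axis, knockout minus parental, log2) of every member above the level filter and of the members in each list by sense gene, with each list's median as a bar and 2-fold as dashed lines. The zinc finger list has its bar at -0.50, the others between -0.48 and 0.21, and the point at -6.81 is ZFPM2-AS1, which belongs to 3 of the lists.

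As a class, -AS genes passed the level filter less often than named genes in general, 26.7% of them against 50.1%, and RefSeq long non-coding RNAs did so in 22.7%. The filter depends on how probes respond, so these shares are not shares of expressed genes. Of the 423 other RefSeq long non-coding RNAs above the filter, 27 were 2-fold higher and 19 lower, where 6.57% and 3.49% of all genes above the filter were. Of the 264 antisense transcripts, 13 had more than 1 cluster. For MEF2C-AS1 the dimmer one differed by -0.93 where the brighter one differed by -0.26.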

How the data were processed

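Total RNA of Hep3B cells was measured on 2 arrays, 1 for the knockout line and 1 for its parent. The deposited values are log2 values per transcript cluster, and the submitters' processing notes name RMA and the Transcriptome Analysis Console as the tools the authors used, with versions not given in the sources used here. Base 2 is what RMA writes and is stated by no label. The largest values, 19.80 and 19.82, exceed what log2 of a scanner signal usually reaches, so folds hold on the deposited scale alone. The identifiers are not of the form usual for the array that the labels name, and the array design and its build are not settled here. No detection calls were used.

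Names came from the platform annotation (37295 clusters listed, 36176 with 1 symbol), and chromosomes, strands and starts from RefSeq GRCh38.p14. The level threshold was 4.78. Python 3.11.15, pandas 2.3.3, numpy 2.4.6 and statsmodels 0.14.6 were used, and the counting was tested on simulated data. No test was run. The alternatives were quantile normalization, removal of a lowess trend, centring, the mean over clusters, other level filters, another symbol rule, clusters starting with TC21 kept, and the sense gene by position.

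Named were ZFPM2-AS1 and CDR1-AS, the 15 highest and 15 lowest differences, the 6 highest means, the 3 genes on either side of the threshold, members whose sense gene was 2-fold apart, the ends of each list, and the sense genes of all these. Any other gene was chosen after its values were seen. The members and lists were chosen with earlier results of these data known.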

Additional observations from a re-analysis of the deposited data

How the results depend on the processing

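Quantile normalization, removal of a level trend, centring and the mean over clusters left no member or sense gene among those named by the rule with a called difference of the opposite sign. The count of 2-fold lower members depended on the level filter. With the higher array value above 6, 3 members were 2-fold lower instead of 9, and 1 pair in place of 3 had both genes 2-fold apart in the same direction. With both array values above the threshold, an alternative added after seeing the data, 2 members were lower and again 1 such pair remained, that of SLC67A1. These filters tested fewer members, 125 and 209. Under the other settings 9 to 14 members were higher and 8 to 12 lower, and the median difference ran from -0.15 to -0.02. It was 0.05 with the higher value above 6 and 0.0057 with both values above the threshold, against -0.03 as reported. Values near background cannot be separated from it without detection calls, which limits the lower members most.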
